A study of Mus musculus with 6 samples.

Results

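This section describes 36 genes of autophagy, mitophagy and the lysosome in differentiating mouse muscle cells. They were taken by gene name from a table of 55413 genes with a unique ID, all 36 names were found once each, and all 36 were among the 12528 genes tested. The cells were C2C12, mouse myoblasts that form multinucleated myotubes in low serum. By their labels, 3 libraries are a knockout of FHL3, a protein built of LIM domains, and 3 are WT. Both groups grew in medium with 10% fetal bovine serum and were collected on day 4 of differentiation in 2% horse serum. The labels name no clone, and do not say that replicates came from separate cultures, so a clone's own differences cannot be told apart from those of the genotype, and the p-values speak only to the spread of these 6 libraries, which may be technical.

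Autophagy delivers cytoplasm and worn organelles to the lysosome. The ULK kinase complex starts it, a lipid kinase complex around Beclin 1 marks the membrane that will grow, and a pair of ubiquitin-like conjugation chains attaches small proteins of the ATG8 family to that membrane. Receptors then link cargo to the ATG8 proteins, mitophagy receptors do so for mitochondria, and cathepsins digest the content after fusion with the lysosome. Skeletal muscle relies on this pathway to clear mitochondria and proteins, and loss of the lysosomal gene LAMP2 causes a human myopathy with vacuoles.

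The file headers name no unit, and the deposited values were taken as FPKM, a level per kilobase of gene and per size of the library. They summed to between 477577 and 494176 in the libraries labelled FHL3-KO and between 424987 and 473369 in WT. The targeted gene itself, Fhl3, was at 57.2, 53.5 and 58.9 FPKM in libraries labelled FHL3-KO, against 27.8, 30.03 and 33.7 FPKM in WT, so its RNA was higher where the label says knockout, and the groups are called by their labels throughout. Among 9 markers of differentiated muscle, beside the 40.8% of all tested genes that were called, 7 rose and 0 fell, with summed levels of 11501 to 12466 FPKM in libraries labelled FHL3-KO and 5404 to 6221 FPKM in WT. The 6 fibroblast markers summed to 158.6 to 181.6 FPKM in libraries labelled FHL3-KO and 272.2 to 298.3 FPKM in WT, where Dcn fell (12.1 FPKM in libraries labelled FHL3-KO and 151.9 FPKM in WT on average), Col1a1 rose and Thy1 was at 0 throughout. Of 6 markers of proliferating cells Ccnb1 and Plk1 rose and Mki67 and Top2a fell. The 8 macrophage markers, which matter here because macrophages are rich in lysosomes, summed to between 2.15 and 2.66 FPKM in libraries labelled FHL3-KO and between 4.14 and 7.45 FPKM in WT, mostly from Cd14, while Ptprc, Adgre1 and Csf1r were at 0.0465 FPKM or less in every library. The part of these markers in the results was not tested. WT replicate 1 held 6 liver markers at a sum of 78.0 FPKM, which stood at 0.0208 FPKM or less in every other library. In RNA from a mixed culture, fewer cells of a type and less RNA per cell cannot be told apart.

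The 36 genes did not move as a group. Of these genes 7 rose and 7 fell in the libraries labelled FHL3-KO, and 22 were not called. With limma, a moderated linear model across all genes with Benjamini-Hochberg adjustment, 40.8% of all tested genes passed an adjusted p of 0.05, 19.7% higher and 21.2% lower, so 14 of 36 (38.9%) is near that background and is no result about these genes as a class. Of the 22 that were not called, 13 were called under at least 1 of 17 alternatives. The median log2 change of the 36 was 0.03, beside -0.0051 for all tested genes. Without WT replicate 1, the library with liver markers, 5 rose and 7 fell, beside 2026 higher and 1958 lower of 12487 tested genes. All libraries of one group lay above or below those of the other in 21 of the 36 (58.3%), beside 53.8% of all tested genes, and for each of these genes the exact two-sided permutation p was 0.1, the smallest that 3 against 3 allows. Changes were small: Atg10 alone differed by more than 2-fold, and the largest rise was 1.56-fold, in Map1lc3a. All log2 changes are of FPKM + 1, which understates changes, most of all those of the lowest genes.

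**Figure D1:**
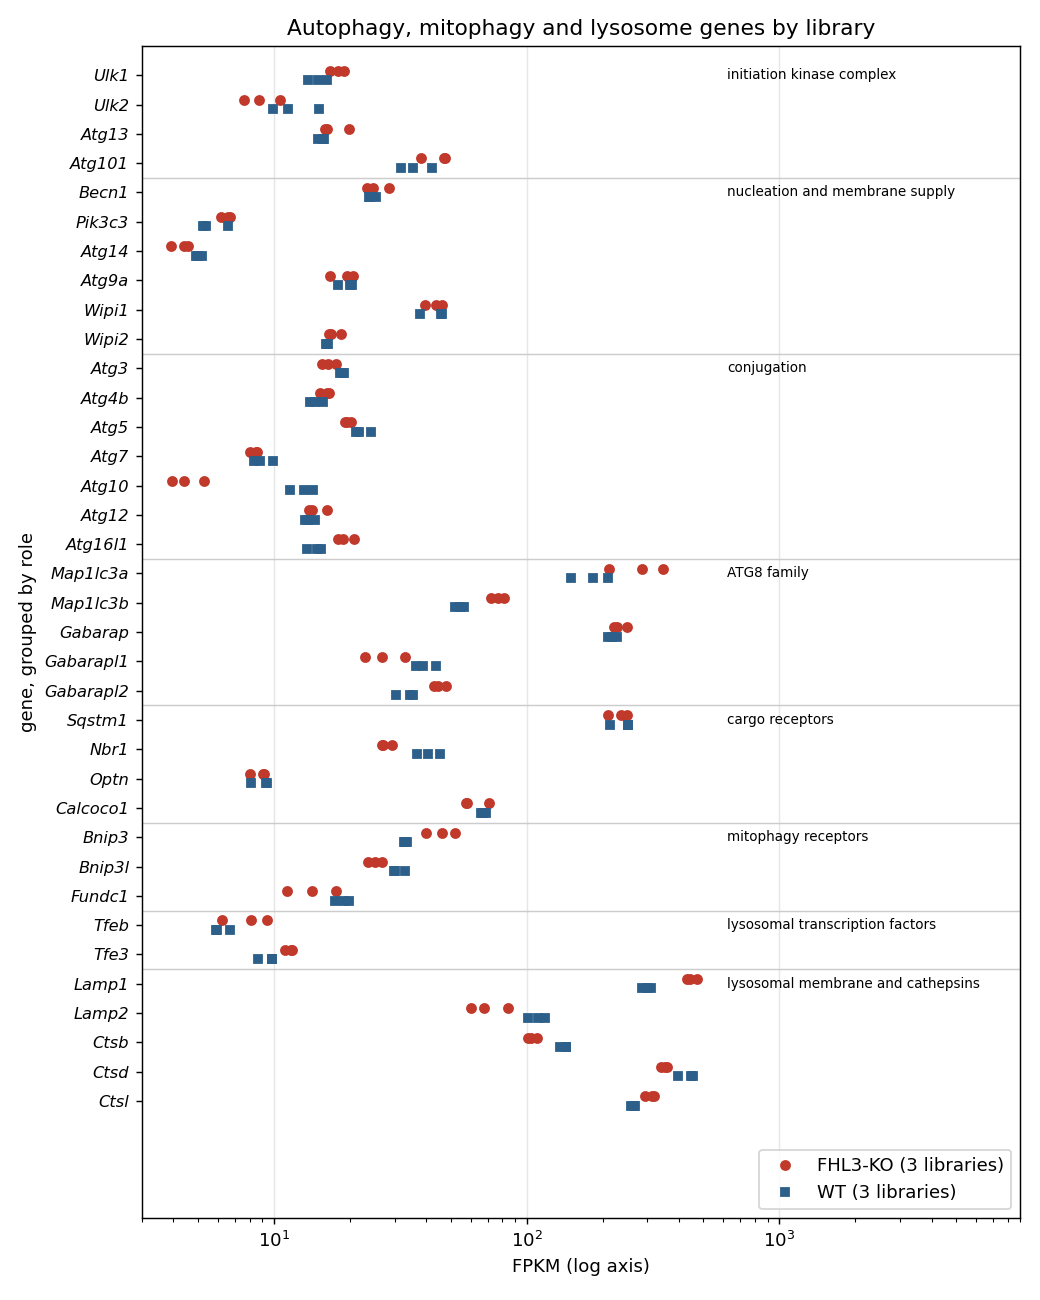
FPKM (log axis) of each of the 36 genes in the 3 libraries labelled FHL3-KO (circles) and the 3 WT libraries (squares), grouped by role. The groups lie apart for 21 genes, most widely for Atg10, where the libraries labelled FHL3-KO reach 5.27 FPKM at most and WT 11.6 FPKM at least.

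The kinase complex that starts autophagy showed no call. The kinase Ulk1 was at 16.7, 19.0 and 17.9 FPKM in libraries labelled FHL3-KO, against 16.2, 15.0 and 13.7 FPKM in WT. The groups did not overlap, and the log2 change of 0.24 (95% interval 0.03 to 0.46) did not pass the adjustment (limma adjusted p = 0.0715). Its relative Ulk2 was at 8.69, 10.5 and 7.63 FPKM in libraries labelled FHL3-KO, against 15.1, 11.4 and 9.92 FPKM in WT, with a log2 change of -0.39 (limma adjusted p = 0.1). The scaffold Atg13 and its stabilising partner Atg101 had log2 changes of 0.15 and 0.28, with limma adjusted p of 0.269 and 0.13. With limma 0 of the 4 genes of this complex were called, beside 40.8% of all tested genes. Of the 4, 1, Ulk1, had an unadjusted limma p under 0.05, as did 6302 of the 12528 tested genes. Ulk1 was called after length correction (0.36, limma adjusted p = 0.00493) but not after length and GC correction (0.15, 0.184), and Atg101 was called without replicate 2 labelled FHL3-KO (0.38, 0.047).

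No gene of membrane nucleation was called on the values as deposited. With limma 0 of 6 were called, beside 40.8% of all tested genes, and 0 had an unadjusted p under 0.05, beside 6302 of 12528. Their log2 changes lay between -0.19 and 0.15. Becn1, the Beclin 1 scaffold of the lipid kinase complex, averaged 25.5 ± 2.6 FPKM in libraries labelled FHL3-KO and 24.3 ± 0.89 FPKM in WT (SD, n = 3 each). Its catalytic subunit Pik3c3 averaged 6.47 ± 0.27 FPKM in libraries labelled FHL3-KO and 5.74 ± 0.74 FPKM in WT. Atg14, which directs that complex to autophagy, was the lowest of the 36 genes, at 4.56, 3.92 and 4.40 FPKM in libraries labelled FHL3-KO against 5.00, 5.18 and 4.90 FPKM in WT. The groups did not overlap for Atg14, with a log2 change of -0.19 and an interval from -0.42 to 0.04. Wipi1 and Wipi2, which read the lipid that the complex makes, had log2 changes of 0.0035 (interval -0.24 to 0.24) and 0.088 (interval -0.095 to 0.27). Atg9a, which moves lipids on the vesicles that seed the membrane, had a log2 change of -0.043. A gene record on the same strand, Gm29253, shares 31.8% of the exon bases of Atg9a and stood at 4.97 FPKM in replicate 3 labelled FHL3-KO, the library in which Atg9a was lowest (16.6 FPKM), so the division between these records is uncertain. After correction for length and GC content Becn1 was called higher (0.29, limma adjusted p = 0.0116, against 0.063 as deposited) and Atg14 lower (-0.26, 0.044), and after length correction alone Wipi2 was called higher (0.33, 0.0204).

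The conjugation chains held the largest change among the 36 genes, a fall of Atg10. Atg10 encodes the E2-like enzyme that joins ATG12 to ATG5. It stood at 4.41, 5.27 and 3.93 FPKM in libraries labelled FHL3-KO, against 14.3, 13.1 and 11.6 FPKM in WT. The highest library labelled FHL3-KO was far below the lowest WT library. The means were 4.54 ± 0.67 FPKM in libraries labelled FHL3-KO and 13.0 ± 1.3 FPKM in WT (SD, n = 3 each), a ratio of 0.349 and a log2 change of -1.34 (SE 0.124, limma adjusted p = 0.000322). The gene spans chromosome 13, 90935356 to 91223968 (GRCm38). Of the 8 other tested genes within 1 Mb of it, 1 rose and 1 fell, with a median log2 change of -0.19.

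The partners of Atg10 in the same reaction were not called on the values as deposited. The substrates Atg5 and Atg12 had log2 changes of -0.17 (interval -0.36 to 0.016) and 0.088 (interval -0.13 to 0.31). After correction for length and GC content Atg12 was called higher (0.38, limma adjusted p = 0.00397), and after length correction alone Atg5 was called lower (-0.26, 0.0434). Atg7, the E1-like enzyme that loads both chains, averaged 8.36 ± 0.29 FPKM in libraries labelled FHL3-KO and 9.01 ± 0.83 FPKM in WT, with a limma adjusted p of 0.459. Atg3, the E2-like enzyme of the ATG8 chain, averaged 16.5 ± 1.1 FPKM in libraries labelled FHL3-KO and 18.7 ± 0.34 FPKM in WT (limma adjusted p = 0.127). Atg3 was called lower after length correction (-0.24, limma adjusted p = 0.0344) and with the libraries scaled to the same sum (-0.28, 0.0444), and stood at 0.13 after length and GC correction. Atg16l1, which brings the ATG12-ATG5 conjugate to the membrane, rose, at 18.0, 20.7 and 18.7 FPKM in libraries labelled FHL3-KO against 13.4, 15.4 and 14.7 FPKM in WT. The groups did not overlap, and the log2 change was 0.37 (SE 0.091, limma adjusted p = 0.0152). It was 0.27 with the libraries scaled to the same sum (limma adjusted p = 0.0621) and 0.64 after correction of every library for its trend with exon length and GC content. Atg4b, the protease that trims ATG8 proteins, had a log2 change of 0.12 (limma adjusted p = 0.298).

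The ATG8 family, the proteins attached to the growing membrane, had calls in both directions. Of 5 members 3 rose and 1 fell, beside 19.7% higher and 21.2% lower among all tested genes. Map1lc3a, which encodes LC3A, was at 286, 212 and 347 FPKM in libraries labelled FHL3-KO, against 150.1, 183 and 209 FPKM in WT. Replicate 2 labelled FHL3-KO was only just above the highest WT library, at 211.7 FPKM beside 209.1 FPKM. The log2 change of 0.62 (SE 0.194, limma adjusted p = 0.037) had the widest error of the family, and the call ended when replicate 1 or replicate 3 labelled FHL3-KO, or WT replicate 1 or 2, was left out (limma adjusted p of 0.105, 0.0978, 0.108 and 0.0913). It also ended after correction for length and GC content (log2 change 0.38, limma adjusted p = 0.0566), but not after length correction alone. Centring by chromosome, the removal of each library's median deviation on each chromosome, ended it too (0.57, limma adjusted p = 0.067). So did quantile normalization (0.41, limma adjusted p = 0.0512) and the use of no filter on level (0.127). Map1lc3a has the shortest exon length of the 36 genes, 1181 bases, and a GC content of 63.1%. The mean log2 deviation of all genes per doubling of exon length was -0.0623, 0.0399 and -0.0597 in replicates 1 to 3 labelled FHL3-KO. It was 0.0796, 0.0255 and -0.0229 in WT replicates 1 to 3. The parts of length and GC content in the change of Map1lc3a were not tested beyond these corrections.

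Map1lc3b, which encodes LC3B, the usual marker protein of autophagosomes, was at 76.8, 81.7 and 71.97 FPKM in libraries labelled FHL3-KO, against 52.0, 56.6 and 54.6 FPKM in WT. The groups lay well apart, with a log2 change of 0.49 (SE 0.079, limma adjusted p = 0.0031). Gabarapl2 was at 44.6, 48.1 and 43.0 FPKM in libraries labelled FHL3-KO, against 35.6, 30.4 and 34.6 FPKM in WT, with a log2 change of 0.42 (SE 0.089, limma adjusted p = 0.00873). Map1lc3b and Gabarapl2 both lie on chromosome 8. After centring by chromosome their log2 changes were 0.13 (limma adjusted p = 0.221) and 0.061 (limma adjusted p = 0.605), and neither was called. Gabarapl1 moved the other way, at 26.7, 23.0 and 33.1 FPKM in libraries labelled FHL3-KO against 36.6, 38.8 and 43.9 FPKM in WT. Its log2 change was -0.52 (SE 0.138, limma adjusted p = 0.0201), and the call ended without replicate 1 labelled FHL3-KO (0.0654), without WT replicate 2 (0.0586) and without WT replicate 3 (0.0588). With no filter on level it ended as well (limma adjusted p = 0.0705). Gabarap, at 233 ± 15 FPKM in libraries labelled FHL3-KO and 218 ± 9.4 FPKM in WT, was not called (log2 change 0.093, interval -0.10 to 0.29).

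As shares of the summed FPKM of the family, Map1lc3a and Gabarap held the most in both groups. Map1lc3a held 43.2%, 34.4% and 48.5% in the libraries labelled FHL3-KO, against 31.0%, 34.8% and 36.6% in WT, and these ranges overlap. Gabarapl1 held 4.03%, 3.74% and 4.62% in the libraries labelled FHL3-KO, against 7.55%, 7.39% and 7.69% in WT, with no overlap. The family summed to 663, 615 and 715 FPKM in libraries labelled FHL3-KO, against 484, 525 and 571 FPKM in WT. These shares are descriptions without a test.

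**Figure D2:**
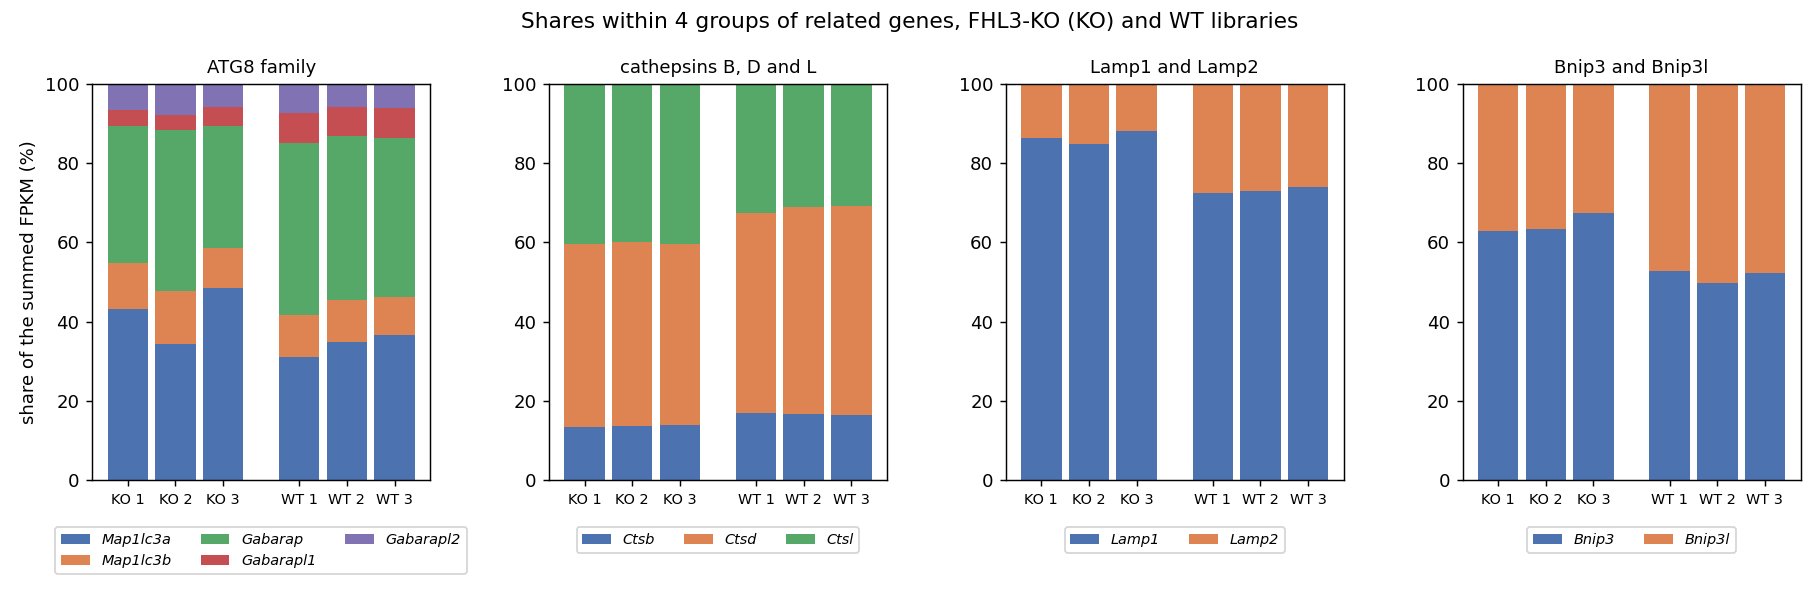
Stacked bars of the share (%) of the summed FPKM held by each gene of 4 related groups, for the 3 libraries labelled FHL3-KO (KO) and the 3 WT libraries. The values are as deposited, without correction for length, GC content or chromosome. Lamp1 held 84.9% to 88.0% of the summed FPKM of Lamp1 and Lamp2 in the libraries labelled FHL3-KO and 72.5% to 73.9% in WT, and Ctsl held 40.0% to 40.5% of the summed FPKM of cathepsins B, D and L in libraries labelled FHL3-KO and 30.8% to 32.6% in WT.

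Of the 4 receptors for general cargo, Nbr1 fell and the other 3 were not called, beside 40.8% of all tested genes called. Nbr1, which binds ubiquitin and, in muscle, the giant sarcomere protein titin, was at 26.7, 29.3 and 27.1 FPKM in libraries labelled FHL3-KO, against 45.3, 40.6 and 36.8 FPKM in WT. The lowest WT library lay above all those labelled FHL3-KO, and the log2 change was -0.54 (SE 0.095, limma adjusted p = 0.0041). Nbr1 and Becn1 lie within 1 Mb of each other on chromosome 11, and of the 57 other tested genes within 1 Mb of Nbr1 15 rose and 4 fell. Sqstm1, which encodes p62, was the most abundant receptor, at 236, 209 and 248 FPKM in libraries labelled FHL3-KO against 214, 252 and 252 FPKM in WT. The ranges of Sqstm1 overlap widely, and its log2 change was -0.050 (interval -0.30 to 0.20), while quantile normalization called it lower (-0.25, limma adjusted p = 0.0408). Optn, a receptor for bacteria and mitochondria, and Calcoco1, a receptor for the endoplasmic reticulum, had log2 changes of -0.030 and -0.11, and Calcoco1 was called lower after length and GC correction (-0.23, limma adjusted p = 0.0463).

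Of the 3 receptors for mitochondria 1 rose and 1 fell, beside 19.7% higher and 21.2% lower among all tested genes. Bnip3, a receptor of the outer mitochondrial membrane induced by low oxygen and by FoxO factors, was at 39.9, 46.3 and 52.1 FPKM in libraries labelled FHL3-KO, against 33.7, 32.6 and 32.9 FPKM in WT. All WT libraries were alike and below the others, and the log2 change was 0.46 (SE 0.104, limma adjusted p = 0.0112), or 0.72 after correction for length and GC content. Its close relative Bnip3l, also called NIX, fell, at 23.5, 26.8 and 25.1 FPKM in libraries labelled FHL3-KO against 30.2, 33.0 and 29.9 FPKM in WT. The log2 change of Bnip3l was -0.29 (SE 0.084, limma adjusted p = 0.0271). That call ended after correction for exon length and GC content, which brought the log2 change to -0.015 (limma adjusted p = 0.901), and without replicate 1 or 3 labelled FHL3-KO or WT replicate 2 (limma adjusted p of 0.0984, 0.0661 and 0.116). Bnip3 made up 62.9% to 67.5% of the summed FPKM of the pair in the libraries labelled FHL3-KO and 49.7% to 52.7% in WT. Fundc1, the third receptor, was at 14.2, 17.6 and 11.2 FPKM in libraries labelled FHL3-KO, against 19.8, 17.5 and 18.9 FPKM in WT. Replicate 2 labelled FHL3-KO fell inside the WT range, and the log2 change of -0.38 was not called (limma adjusted p = 0.0778). Without that library it was -0.53 (limma adjusted p = 0.0129) and after length correction -0.47 (0.047), but after length and GC correction -0.053 (0.702).

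The factors that switch on lysosomal genes were both higher on average. Tfe3 was at 11.1, 11.8 and 11.7 FPKM in libraries labelled FHL3-KO, against 8.65, 9.78 and 9.86 FPKM in WT, with no overlap. Its log2 change of 0.27 (SE 0.089) lay close to the threshold (limma adjusted p = 0.0465), and the call ended when any of the 6 libraries was left out (limma adjusted p from 0.0684 to 0.121). It also ended with the libraries scaled to the same sum (0.17, limma adjusted p = 0.198), with no filter on level (0.0589) and with the replicate number as a block (0.0743). Tfeb was at 8.11, 6.24 and 9.35 FPKM in libraries labelled FHL3-KO, against 5.96, 6.69 and 5.91 FPKM in WT. Replicate 2 labelled FHL3-KO lay inside the WT range of Tfeb, and the log2 change of 0.29 was not called (limma adjusted p = 0.136), while without that library it was 0.44 (limma adjusted p = 0.0211) and after length and GC correction 0.11 (0.551).

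Lysosomal membrane proteins and proteases included the most abundant of the 36 genes. Of these 5 genes 1 rose and 3 fell, beside 19.7% higher and 21.2% lower among all tested genes. Lamp1, a main glycoprotein of the lysosomal membrane, was at 431, 474 and 444 FPKM in libraries labelled FHL3-KO, against 311, 299 and 287 FPKM in WT, a log2 change of 0.58 (SE 0.084, limma adjusted p = 0.00195). The call ended after quantile normalization (log2 change 0.27, limma adjusted p = 0.133) and after centring by chromosome (0.22, limma adjusted p = 0.0707). Lamp2, its relative and the gene of Danon disease, went down, at 68.0, 84.6 and 60.3 FPKM in libraries labelled FHL3-KO against 118, 111 and 101 FPKM in WT. Its log2 change was -0.64 (SE 0.131, limma adjusted p = 0.00778). Lamp2 has an exon length of 9552 bases and a GC content of 38.7%, the lowest of the 36 genes, and after correction for both the log2 change was -0.12 (limma adjusted p = 0.195).

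The cathepsins differed among themselves. The cysteine protease Ctsb fell, at 104, 101 and 109.8 FPKM in libraries labelled FHL3-KO against 136, 143 and 143 FPKM in WT, with a wide gap between the groups. Its log2 change was -0.42 (SE 0.073, limma adjusted p = 0.00409). It shares 12.8% of its exon bases with Fdft1 on the opposite strand, at 64.5 to 73.4 FPKM in libraries labelled FHL3-KO and 60.1 to 60.5 FPKM in WT. The sources used here do not say whether counting used the strand. The aspartic protease Ctsd was at 354, 341 and 358 FPKM in libraries labelled FHL3-KO, against 399, 447 and 457 FPKM in WT. Its log2 change of -0.30 (SE 0.089, limma adjusted p = 0.0295) was no longer called without any 1 of the 3 libraries labelled FHL3-KO or without WT replicate 2 or 3 (limma adjusted p from 0.0568 to 0.121). The call also ended with no filter on level (0.0646) and with the replicate number as a block (0.0621). After length and GC correction the log2 change of Ctsd was -0.49 (limma adjusted p = 0.0014). Ctsl, a cysteine protease with a similar role, was at 312, 295 and 319 FPKM in libraries labelled FHL3-KO, against 259, 267 and 268 FPKM in WT. The groups of Ctsl did not overlap, and the log2 change of 0.22 (interval 0.04 to 0.40) did not pass the adjustment (limma adjusted p = 0.0538). After correction for length and GC content it was 0.48 (limma adjusted p = 0.0119), and after quantile normalization -0.023 (limma adjusted p = 0.847).

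**Figure D3:**
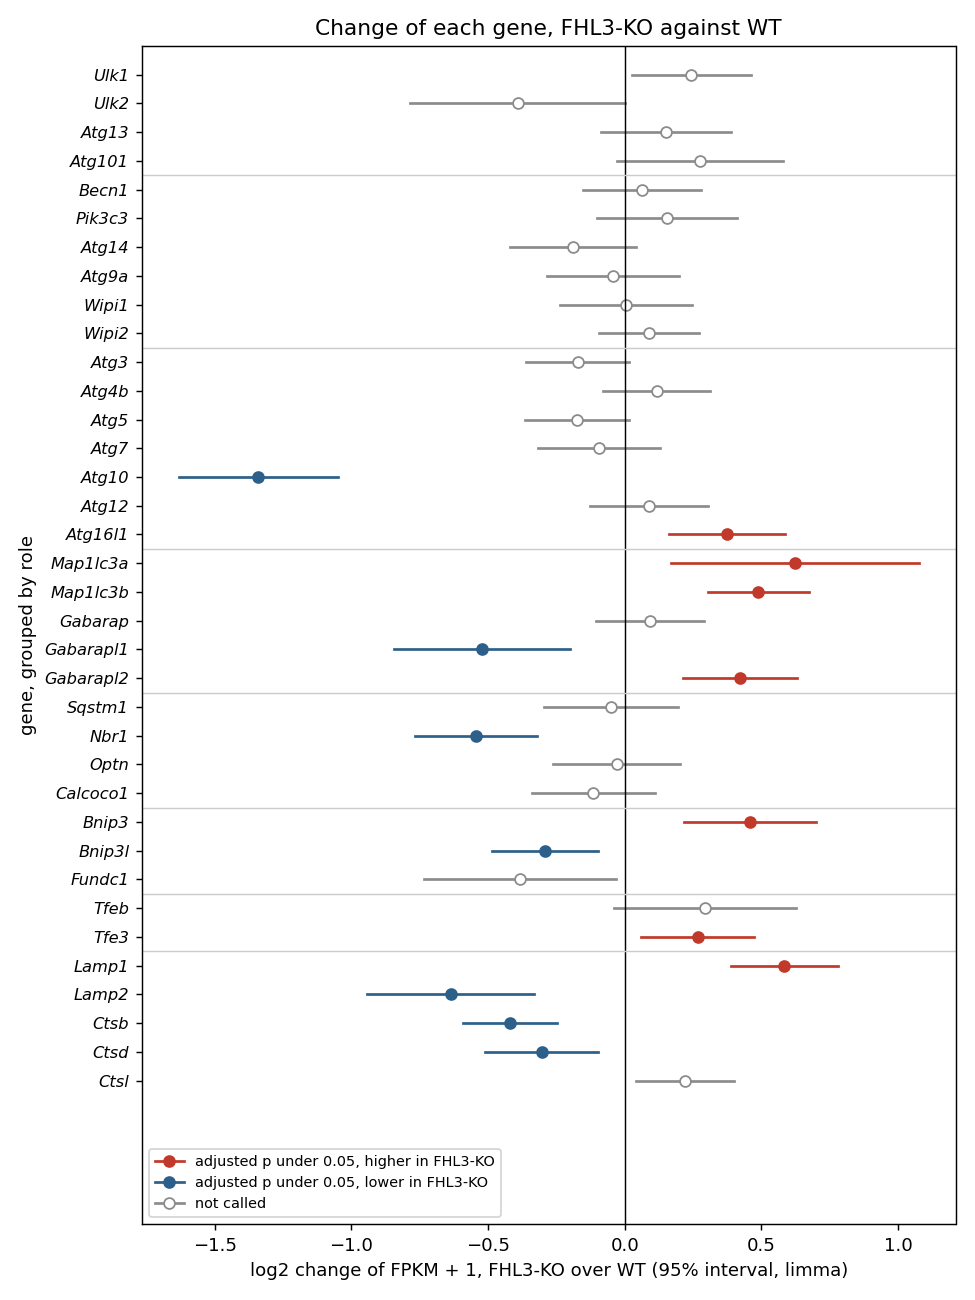
Log2 change of FPKM + 1 (libraries labelled FHL3-KO over WT) with its 95% interval from limma for the 36 genes in order of role, with filled points where the adjusted p was under 0.05. The interval of Atg10, from -1.63 to -1.05, lies beyond those of the other 35 genes.

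TFEB and TFE3 bind a palindrome around the letters CACGTG that recurs in front of lysosomal genes, so those letters were looked for in the RefSeq promoters of these genes (GRCm38.p6, 250 bases before to 50 after the start, the promoter listed first for a gene, read on both strands). A promoter was at hand for 29 of the 36 genes and for 9052 tested genes. The 29 held 5 genes that rose, 5 that fell and 19 that were not called. The letters were present in 8 of the 29 (27.6%) and in 10.6% of all 9052. The longer form TCACGTGA, which contains CACGTG, was present in 2 of the 29 (6.90%), Atg3 and Ctsd, and in 2.13% of all. The FoxO letters GTAAACA, or TGTTTAC on the other strand, were in 0 of the 29 and in 2.46% of all. The 8 with CACGTG were Lamp1 and Bnip3, which rose, Ctsd, which fell, and Atg3, Atg5, Atg7, Atg14 and Ctsl, which were not called. The promoter listed first need not lie at the outermost start of a gene. The letters of Atg7, Atg14 and Ctsl, and 1 of the 2 copies of Ctsd, lie inside the annotated span of the gene. Of the calls of Lamp1, Bnip3 and Ctsd, that of Bnip3 alone held under all 17 alternatives. The stretches before the start site of these 3 genes are shown with each CACGTG in capitals and the gene's own strand read 5′ to 3′.
Lamp1 (chr8:13159075-13159160, + strand, 86 to 1 bases before the start): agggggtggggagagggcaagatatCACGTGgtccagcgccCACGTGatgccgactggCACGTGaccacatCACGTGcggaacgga
Bnip3 (chr7:138909584-138909639, - strand, 133 to 78 bases before the start): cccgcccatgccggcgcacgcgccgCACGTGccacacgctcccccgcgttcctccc
Ctsd (chr7:142388039-142388077, - strand, 250 to 212 bases before the start): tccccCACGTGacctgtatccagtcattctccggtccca
Lamp1 thus holds 4 copies just before its RefSeq start, Bnip3 1 and Ctsd 2, of which the shown one lies upstream of all annotated exons of Ctsd and is not the copy inside TCACGTGA. A match of letters is a description and does not show binding.

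Some of the genes that rose lie on chromosome 8, where the tested genes were shifted upward. Lamp1, Map1lc3b and Gabarapl2, 3 of the 7 genes that rose, all lie on chromosome 8, at 13159161 to 13175338, 121590361 to 121598760 and 111940703 to 111953612 (GRCm38), and no other of the 36 genes does. The 676 tested genes of chromosome 8 had a median log2 change of 0.37, and 51.5% of them were called higher and 7.40% lower. Relative to the WT mean, that median was 0.365, 0.375 and 0.374 in replicates 1 to 3 labelled FHL3-KO, and 0.00845, 0.0138 and -0.0107 in WT replicates 1 to 3. The highest median of any other chromosome was 0.072, on chromosome 7. When each library's median deviation on each chromosome was removed, Lamp1 had a log2 change of 0.22 (limma adjusted p = 0.0707), Map1lc3b of 0.13 (0.221) and Gabarapl2 of 0.061 (0.605), and none of these was called. The 4 genes that rose elsewhere were Map1lc3a on chromosome 2, Atg16l1 on chromosome 1, Bnip3 on chromosome 7 and Tfe3 on chromosome X. Of the 33 genes on other chromosomes 4 rose (12.1%) and 7 fell (21.2%), beside 17.8% and 22% of all 11819 tested genes placed there. A difference tied to chromosome 8 and one tied to the genotype cannot be told apart here, because all 3 libraries labelled FHL3-KO carry the shift.

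**Figure D4:**
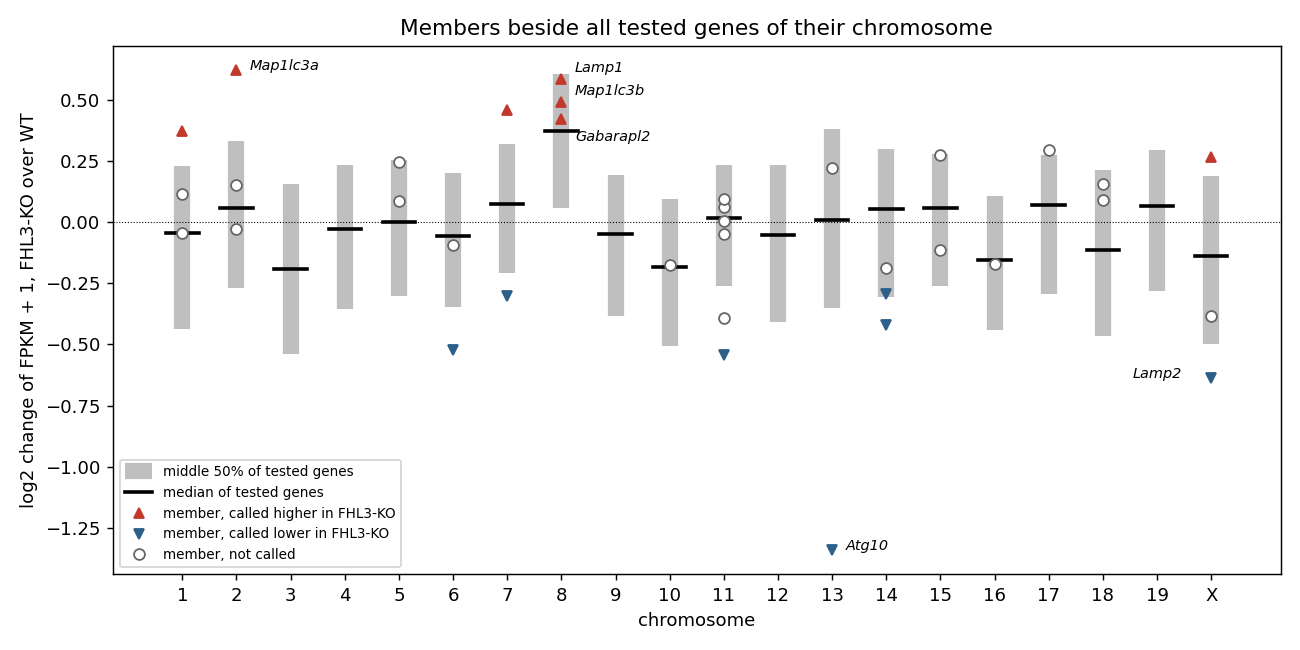
Log2 change of the 36 genes (symbols) by chromosome, with the median (black line) and the middle 50% (grey bar) of all tested genes of that chromosome. Chromosome 8 has a median of 0.37, and the 3 genes that lie there sit between it and 0.58.

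**Figure D5:**
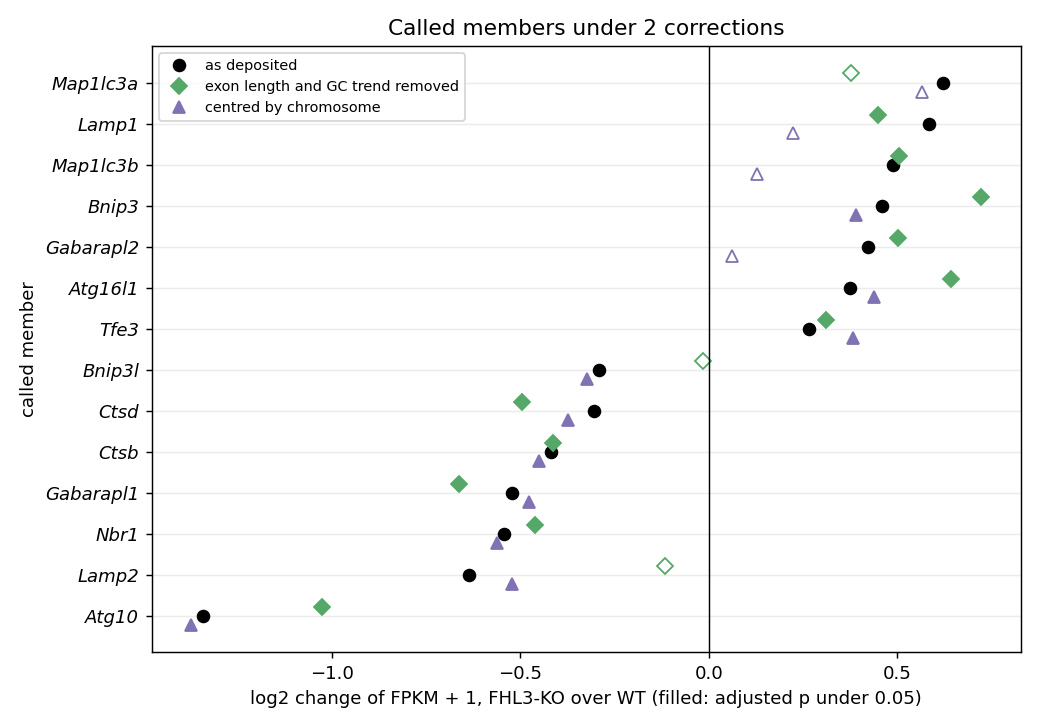
Log2 change of the 14 called genes as deposited (circles), after correction for exon length and GC content (diamonds) and after centring by chromosome (triangles), filled where the limma adjusted p was under 0.05. Lamp2 and Bnip3l lose their call under the correction for length and GC content, Lamp1, Map1lc3b and Gabarapl2 under centring by chromosome, and Map1lc3a under both.

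Beyond the 36 genes, 8 lists with 147 other genes of the pathway were measured, of which 138 were tested, 17 rose and 28 fell (32.6%, beside 40.8% of all tested genes). Leaving out 1 library gave 8 to 18 higher and 17 to 31 lower, with the fewest of both without WT replicate 2 and 10 higher and 17 lower without replicate 1 labelled FHL3-KO. Among 14 other genes of initiation and nucleation 1 rose and 2 fell (21.4% called, beside 40.8% of all tested genes). After length correction 4 rose and 1 fell, and 1 rose and 4 fell without replicate 2 labelled FHL3-KO. Rb1cc1, the FIP200 scaffold of the ULK complex, fell to 5.18, 7.93 and 4.38 FPKM in libraries labelled FHL3-KO, against 19.3, 13.98 and 11.7 FPKM in WT (log2 change -1.23, limma adjusted p = 0.00522), while the lipid-binding Wdr45b rose (0.44, limma adjusted p = 0.00343). The change of Rb1cc1 was -0.66 after correction for length and GC content and remained called. Atg2a, a lipid transfer protein of the growing membrane, had a log2 change of -0.29 (limma adjusted p = 0.036), and its call ended after length correction (-0.12, limma adjusted p = 0.272) and without any library other than replicate 2 labelled FHL3-KO (0.0557 to 0.12). The call of Atg2a also ended after quantile normalization (-0.22, limma adjusted p = 0.0712) and with the replicate number as a block (0.0783). After length and GC correction the log2 change of Atg2a was -0.38 (limma adjusted p = 0.00392). Of 6 other genes of ATG8 processing, Tecpr1, Atg4c and Atg4d among them, 0 were called with limma, beside 40.8% of all tested genes. Of these 6, 1 had an unadjusted limma p under 0.05, beside 6302 of 12528 tested genes.

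Receptors and fusion genes outside the 36 had calls in both directions. Of 15 tested receptors 2 rose and 5 fell, beside 19.7% higher and 21.2% lower among all tested genes. Sec62, a receptor for the endoplasmic reticulum, was at 13.96, 16.7 and 14.4 FPKM in libraries labelled FHL3-KO, against 43.6, 37.9 and 35.0 FPKM in WT (log2 change -1.31). Tax1bp1, a ubiquitin receptor, was at 19.3, 21.3 and 15.6 FPKM in libraries labelled FHL3-KO, against 52.3, 43.3 and 39.2 FPKM in WT (log2 change -1.22). Ccpg1, another receptor for the endoplasmic reticulum, had a log2 change of -1.05. In the order Sec62, Tax1bp1 and Ccpg1, the limma adjusted p were 0.00021, 0.000851 and 0.000312. After length and GC correction Tax1bp1 was at -0.71 (limma adjusted p = 0.000342). Of 15 genes of fusion with the lysosome 1 rose and 5 fell (40% called, beside 40.8% of all tested genes). The 3 with the smallest p were Vps41 of the HOPS tether (-1.07), the SNARE Snap29 (-0.82) and Rab7b (-0.82). Their limma adjusted p were 0.000554, 0.00096 and 0.00655.

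Other lysosomal genes had calls in both directions. Of 31 tested hydrolases 2 rose and 6 fell (25.8% called, beside 40.8% of all tested genes). Psap, the precursor of the saposins that help break down sphingolipids, was at 379, 368 and 397 FPKM in libraries labelled FHL3-KO, against 523, 537 and 526 FPKM in WT (log2 change -0.47, limma adjusted p = 0.00391), or -0.29 after centring by chromosome. The mannosidase Manba and the cathepsin Ctso had log2 changes of -1.21 and -0.72 (limma adjusted p of 0.000249 and 0.00162), and Ctso was at -0.39 after length and GC correction (0.0141). Of 14 tested genes of the membrane and of transport 1 rose and 4 fell (35.7% called, beside 40.8%). The one that rose was the cholesterol exporter Npc1 (0.63, limma adjusted p = 0.00376). Cln3 was listed at 0, 0.323 and 0.0391 FPKM in libraries labelled FHL3-KO and at 1.24, 0.73 and 1.38 FPKM in WT (limma adjusted p = 0.00656), levels too low for a reliable fold.

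The proton pump and the regulators upstream had calls in both directions. Of 17 V-ATPase subunits 4 rose and 1 fell, beside 19.7% and 21.2% of all tested genes, but 1 rose and 3 fell with the libraries scaled to the same sum and 2 rose and 3 fell after quantile normalization. Atp6v1a, the catalytic subunit, fell (log2 change -0.71, limma adjusted p = 0.00314), and the membrane subunits Atp6v0d1 and Atp6v0a1 rose (0.48 and 0.40, limma adjusted p of 0.00406 and 0.0106). Atp6v0d1 lies on chromosome 8, and its change was 0.12 after centring by chromosome (limma adjusted p = 0.269), and the call of Atp6v0a1 ended with the libraries scaled to the same sum (0.30, 0.0805). Of 26 tested regulators around mTORC1, AMPK and TFEB 6 rose and 5 fell (42.3% called, beside 40.8%). The split was 1 higher and 6 lower with scaling to the same sum and 5 higher and 1 lower with no filter. Without replicate 1 or 3 labelled FHL3-KO, or WT replicate 1 or 2, 1 was lower. Among them the Rag GTPase Rragd rose (0.51, limma adjusted p = 0.013), the lysosomal anchor Lamtor1 rose (0.37, 0.0126) and Fnip1, a partner of folliculin, fell (-0.88, 0.00962). The call of Rragd ended with scaling to the same sum (0.42, 0.0554) and that of Lamtor1 after quantile normalization (0.22, 0.0659), and Fnip1 was at -0.42 after length and GC correction (0.0152).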

How the data were processed

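RNA-seq of 6 libraries was compared, 3 labelled FHL3-KO and 3 labelled WT. The submitters' processing notes name mm10, DESeq2 1.28.1, featureCounts 2.0.1, HISAT2 2.2.1 and Trim Galore 0.6.6 without saying what each did. The sources used here give no annotation, no strand setting and no step that made the table. The deposited values were taken as FPKM because of their behaviour, since per the file headers no unit is named. In genes with 1 transcript, the most common product of value and exon length in kilobases was 0.0485 to 0.0564 by library. If that is 1 fragment, relative depths were 0.86 to 1. Absolute depth is unknown, so no counting interval is given.

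Of 55420 rows, 7 that shared 3 repeated IDs were left out. GENCODE M21 (GRCm38) gave positions, exon length and GC content. Because the values are not counts, the planned test for normalized values was used. Genes averaging 1 FPKM or more in either group were kept. Limma 3.58.1 (R 4.3.3) was then run on log2(FPKM + 1) with a trend, two-sided, with Benjamini-Hochberg adjustment over all genes tested, a threshold of 0.05 and no covariates. Length and GC trends were splines with 5 degrees of freedom, fitted per library. The steps were tested on simulated data with independent noise for each gene. Those data held no shift by length, GC content or chromosome, so they cannot speak to calls under such shifts. The members, the lists and the rule for named genes (all 36 members, and the 3 genes of each other list with the smallest p) were chosen with earlier results of these data known. One gene that this rule names is not reported here. Centring by chromosome, and the replicate block with length and GC correction, were chosen after seeing the data.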

Additional observations from a re-analysis of the deposited data

How the results depend on the processing

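Of the 14 called members, 4 (Atg10, Nbr1, Bnip3 and Ctsb) kept their call under all 17 alternatives, each at a threshold of 0.05. With any single library left out, 9 kept it. A threshold of 0.01 left 2695 of 5112 calls over all genes, and 3 members higher and 4 lower. Bnip3 (limma adjusted p = 0.0112) was not among these. Leaving out 1 library gave 3272 calls (without WT replicate 2) to 5273 (without replicate 2 labelled FHL3-KO), with 5 to 8 members higher and 4 to 7 lower. It was 4 lower without replicate 1 labelled FHL3-KO and without WT replicate 2. Centring by chromosome left 3 members higher, beside 2362 of 12528 tested genes. Length correction gave 12 members higher and 10 lower, beside 3002 higher and 2585 lower of 12495 tested genes. Scaling to the same sum moved the median of all genes to -0.10 and made 36.1% of calls rises, beside 48.2%. It gave 5 members higher and 8 lower, beside 1686 higher and 2978 lower of 12562 tested genes. Deviations of libraries with the same replicate number correlated at -0.127, -0.0626 and 0.316, and those with different numbers at -0.376 to 0.368. The deviations are from means of 3 libraries, so these values cannot decide whether the replicate number pairs them. With that number as a replicate block, 4759 genes were called, 6 members higher and 6 lower, and with length and GC correction added 4907 genes, 10 members higher and 5 lower. Every sign change was in a gene called neither in the comparison as reported nor under the alternative. With quantile normalization Wipi1 was at -0.11, Gabarap at -0.088, Optn at 0.046 and Ctsl at -0.023. With scaling to the same sum Wipi1 was at -0.10, Becn1 at -0.042, Wipi2 at -0.015, Gabarap at -0.016 and Atg12 at -0.014. With length correction Atg9a was at 0.041, Atg7 at 0.047 and Tecpr1 at 0.017. With length and GC correction, with or without the replicate block, Wipi1 was at -0.085, Atg3 at 0.13 and Gabarap at -0.021. Centred by chromosome, Atg9a was at 0.021, Wipi1 at -0.015 and Atg5 at 0.011. Leaving out 1 library gave Becn1 -0.016 to 0.12, Wipi1 -0.086 to 0.062, Sqstm1 -0.13 to 0.020, Atg9a -0.10 to 0.042 and Optn -0.0901 to 0.025. The cause was not tested. DESeq2 and edgeR were not run, since the values are not counts.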

Other observations

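Some called genes differed from their neighbours on the chromosome, which shows their changes against the local level. Of the 10 other tested genes within 1 Mb of Ctsb 2 rose and 1 fell (median log2 change 0.20), while Ctsb fell by 0.42 on the log2 scale. Of the 6 near Bnip3 0 rose and 1 fell (0.04), while Bnip3 rose by 0.46. Near Map1lc3b 17 of 22 rose and 0 fell (median 0.55), a level above that of Map1lc3b itself (0.49). Near Gabarapl2 10 of 21 rose and 1 fell (0.36), and near Lamp1 9 of 19 rose and 2 fell (0.21). Other pathway genes on chromosome 8 were Asah1, Atp6v0d1, Atp6v1b2, Fkbp8, Galns, Man2b1, Mcoln1 and Tmem192, of which 3 of 8 rose and 0 fell with limma. Of all 676 tested genes of chromosome 8, 51.5% were called higher and 7.40% lower. Among the other pathway genes on the remaining chromosomes 14 of 130 rose (10.8%) and 28 fell (21.5%), beside 17.8% and 22% of all 11819 tested genes there.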
